A study of Mus musculus with 4 samples.

Results

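DNA damage repair and checkpoint signalling were followed through a set of 55 mouse genes chosen by their function. Of these, 46 had a probe set on the array that carries their symbol alone, 61 probe sets in all out of 12422 that are not array controls. The other 9, Rad51c, Xrcc2, Fanca, Xrcc4, Lig4, Polh, Rad18, Trex1 and Atr, were not analysed here. The PEPCK-TAg mice express the SV40 large T and small t antigens from a transgene driven by the promoter of the gluconeogenic enzyme PEPCK, and the wild-type mice are not transgenic. Mice of both groups were males of the hybrid strain B6SJL, 50 to 66 days old, and after weaning had eaten a diet of 65% protein and 10% carbohydrate freely for 4 weeks. The PEPCK promoter is active in hepatocytes, and feeding rich in protein and poor in carbohydrate is known to raise its activity. Total liver RNA was measured on Affymetrix MG_U74Av2 arrays, 2 for each group. The series calls them duplicate measurements, and whether they stand for different mice is not stated in the sources used here. A p-value therefore reflects array-to-array spread, which may be technical.

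Cells answer DNA damage along several routes. Breaks through both strands are repaired by homologous recombination, which copies the sister molecule and so works mainly in S and G2 phase, or by end joining, which works throughout the cycle. Mismatch repair corrects copying errors behind the replication fork, base excision repair removes small damaged bases, nucleotide excision repair removes bulky lesions, and the Fanconi anaemia proteins act on crosslinks between the strands. The kinases ATM and ATR, with CHK1 and CHK2 below them, hold the cell cycle while repair proceeds. Many genes of replication-linked repair are targets of the E2F factors, which the RB family of pocket proteins holds in check. Large T binds that family and p53.

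The median deposited signal was 77.05 and 84.7 on the PEPCK-TAg arrays, against 68.4 and 66.6 on the wild-type arrays. Actin control probe sets, which read RNA quality as a ratio of 3' to 5' signal, gave 3.82 and 3.14 on the PEPCK-TAg arrays, against 4.33 and 3.41 on the wild-type arrays. The same ratio for Gapdh was 4.57 and 2.9 on the PEPCK-TAg arrays, against 5.35 and 3.8 on the wild-type arrays. PEPCK-TAg 1 and wild-type 1 were scanned on the same day with the same type of scanner and fluidics station. PEPCK-TAg 2 was washed on another station, and wild-type 2 was read on another type of scanner. Both PEPCK-TAg arrays came from 1 chip lot and the wild-type arrays from 2 others, so lot and genotype cannot be told apart. With 4 arrays, precision is limited throughout. In whole liver RNA, a change in the number of cells of a type and a change in RNA per cell cannot be told apart either.

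Of the 10 members that rose, 5 belong to homologous recombination, 2 to the Fanconi anaemia pathway, 2 are checkpoint kinase genes and 1 belongs to end joining. Nucleotide excision repair held 0 of 11 probe sets tested, base excision repair 0 of 12, mismatch repair 0 of 3 and the damage tolerance group 0 of 2. Over all probe sets tested 9.10% were called higher, a share at which so few probe sets may hold none. The pathways were not tested against each other. Testing required at least 2 arrays above a signal of 41.3, the 40th percentile of all signals. This left 50 probe sets of 43 member genes. The other 11 read between 0.3 and 50.3, and Exo1, Bard1 and Rad54l had no brighter one. In limma's moderated test with Benjamini-Hochberg adjustment over all 7877 probe sets tested, 10 of the 50 (20%) rose at an adjusted p under 0.05, against 9.10% of all probe sets tested. No member fell, against 3.40% of all probe sets tested. At an unadjusted p under 0.05, 1 member was lower and 19 were higher, where 2394 of all 7877 probe sets passed in either direction. The same background stands behind each later count at an unadjusted p in this fit. The 10 rises ranged from 2.29-fold to 12.4-fold and belonged to Chek1, Brca2, Brca1, Fancc, Blm, Fancg, Rad50, Mre11a, Prkdc and Chek2. The median log2 difference, PEPCK-TAg minus wild-type, was 0.61 over the 50 probe sets and 0.051 over all probe sets tested. All 19 tested markers of dividing cells rose as well by at least 1 probe set, while a further probe set of Mki67 and of Tk1 was lower without passing. The part of dividing cells in the rises of the members was not tested.

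Without a test, 14 of the 50 (28.0%) differed by 2-fold or more upwards with no overlap between the groups, against 14.7% of all probe sets tested, and 1 differed downwards, against 5.87%. The groups failed to overlap, with PEPCK-TAg on top, in 29 of the 50 (58.0%, against 33.3% of all), and with PEPCK-TAg below in 5 (10.0%, against 26.5%). By sign alone, 35 of the 50 (70.0%) were higher in PEPCK-TAg liver, against 53.1% of all probe sets tested. An exact permutation test of 2 arrays against 2 cannot give a p under 0.333. The rises of more than 5-fold were those of Chek1, Brca2, Brca1, Fancc and Blm. Blm, Fancg and Mre11a, as well as Pms2 and a probe set of Lig3, passed the filter only through the PEPCK-TAg arrays and so had to differ. The other 7 rises were of probe sets above the filter level on at least 1 wild-type array.

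Where an array was left out, 1 group kept a single array, and limma's p-values took their spread from the other group. The number of rises, like the share called higher over all probe sets, depended on the arrays and on the processing. That number fell when a PEPCK-TAg array was left out and grew when a wild-type array was. The share called higher over all probe sets did the same. The median log2 difference of the members was 0.519 without PEPCK-TAg 1 and 0.465 without PEPCK-TAg 2. It was 0.543 without wild-type 1 and 0.68 without wild-type 2. Over all probe sets tested the median lay between 0.00679 and 0.0674 in these fits. Without a filter on dim signals the number of rises was 0 of 61 member probe sets, against 1.04% called higher over all 12422. There 16 members were higher at an unadjusted p under 0.05, where 2476 of all probe sets passed in either direction. It was 0 as well, for members and for all probe sets, in a fit that blocked on the fluidics station. That fit leaves the contrast to 3 arrays. In it 16 members were again higher at an unadjusted p under 0.05, where 1432 of all probe sets passed in either direction. In the array pair of 1 scan day, PEPCK-TAg 1 minus wild-type 1, the 10 called probe sets differed by 1.47 to 3.41 on the log2 scale, and the median over the 50 was 0.59, against 0.029 over all probe sets tested.

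**Figure D1:**
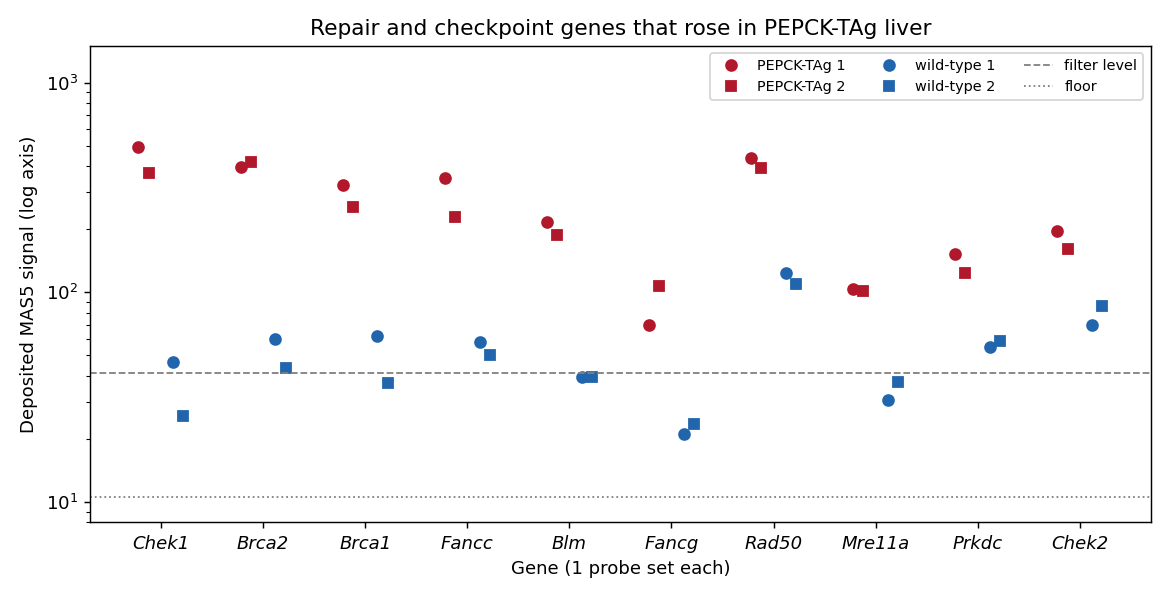
Deposited MAS5 signal (log axis) of the 10 member probe sets that rose, 1 point per array, with PEPCK-TAg arrays in red and wild-type arrays in blue. The dashed line is the filter level of 41.3 and the dotted line the floor of 10.6. Both PEPCK-TAg points lie above both wild-type points for every gene, which for Blm, Fancg and Mre11a the filter required. The gap is widest for Chek1.

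The promoters of members that rose were searched for the letters that E2F factors are known to bind, since members that moved together could be compared with members that did not. The words were TTTCGCGC, TTTGGCGC, TTTCCCGC and TTTGCCGC on either strand, within 250 bases before to 50 bases after the gene start, in the promoter table of RefSeq (build GRCm38.p6), which held 35 of the 46 members by gene ID. An E2F word stood in the promoters of 3 of the 8 called genes with an entry (Brca2, Fancg and Chek2), in 4 of 25 that were tested and not called (Msh3, Msh6, Xrcc6 and Nthl1) and in 1 of 2 that were not tested (Bard1). Over all 27025 genes of the table the share with an E2F word in a promoter was 2.6%. The word CCAAT, the box bound by NF-Y, stood in 5 of the 8 called genes and in 14 of the 25 not called, against 41.1% of all genes, and TTTGAA, an element of cell cycle promoters, in 0 of 8 and 2 of 25, against 20.2%. The promoters of the 3 called genes with an E2F word are shown with that of Msh3, which has overlapping words and was not called. Msh3 was picked after its values were seen. Each is given 5' to 3' on the strand of the gene, with the E2F words in capitals.
Brca2, chr5:150522371-150522670, plus strand: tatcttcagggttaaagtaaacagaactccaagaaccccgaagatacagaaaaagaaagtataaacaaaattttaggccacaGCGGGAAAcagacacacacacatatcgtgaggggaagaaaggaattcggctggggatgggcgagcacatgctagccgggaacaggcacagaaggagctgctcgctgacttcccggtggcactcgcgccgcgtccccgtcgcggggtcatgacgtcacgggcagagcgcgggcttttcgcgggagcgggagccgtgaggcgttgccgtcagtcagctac
Fancg, chr4:43010252-43010551, minus strand: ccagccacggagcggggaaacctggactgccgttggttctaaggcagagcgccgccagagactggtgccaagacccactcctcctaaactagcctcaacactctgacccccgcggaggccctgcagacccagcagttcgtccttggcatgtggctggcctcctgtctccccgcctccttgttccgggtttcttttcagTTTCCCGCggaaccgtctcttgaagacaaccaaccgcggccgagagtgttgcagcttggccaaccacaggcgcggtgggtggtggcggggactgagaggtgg
Chek2, chr5:110839733-110840032, plus strand: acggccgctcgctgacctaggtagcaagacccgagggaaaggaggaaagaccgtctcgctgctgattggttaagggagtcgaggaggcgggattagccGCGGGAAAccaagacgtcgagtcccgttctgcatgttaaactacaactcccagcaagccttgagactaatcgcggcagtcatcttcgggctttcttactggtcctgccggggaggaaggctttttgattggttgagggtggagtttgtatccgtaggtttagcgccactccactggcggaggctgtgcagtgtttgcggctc
Msh3, chr13:92354954-92355253, minus strand: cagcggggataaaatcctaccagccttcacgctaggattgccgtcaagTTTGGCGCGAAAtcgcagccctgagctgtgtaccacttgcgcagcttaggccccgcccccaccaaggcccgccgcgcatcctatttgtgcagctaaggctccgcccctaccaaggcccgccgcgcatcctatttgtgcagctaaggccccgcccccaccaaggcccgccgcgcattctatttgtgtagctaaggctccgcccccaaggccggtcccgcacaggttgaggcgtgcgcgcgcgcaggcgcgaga
Counted from the gene start, the word began at -168 in Brca2, at -52 in Fancg and at -152 in Chek2, and the first of the overlapping pair in Msh3 began at -202. Such a match is a description of letters, and a promoter without one, such as those of Chek1 and Brca1, lacks only these words in this window.

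Homologous recombination held 5 of the 10 rises, in 9 probe sets of 9 genes tested (55.6%, against 9.10% of all probe sets). Of the 5, Blm and Mre11a passed the filter only through the PEPCK-TAg arrays and so had to differ. The other 3 were above the filter level on at least 1 wild-type array. Brca2, a tumour suppressor needed for recombination repair, gave signals of 395.2 and 419.1 on the PEPCK-TAg arrays, against 59.9 and 43.7 on the wild-type arrays. It rose 7.95-fold (log2 difference 2.99 ± 0.29 SE, limma adjusted p = 0.00228). The PEPCK-TAg arrays lay close together and far above both wild-type arrays, and the promoter of this gene, shown above, holds 1 E2F word. Brca1, a ubiquitin ligase that favours resection of broken ends, gave 326.2 and 256.7 on the PEPCK-TAg arrays, against 61.9 and 36.9 on the wild-type arrays, a rise of 6.05-fold (log2 difference 2.60 ± 0.36 SE, limma adjusted p = 0.00681). The call of Brca1 was lost without PEPCK-TAg 1 (2.42, limma adjusted p = 0.07) and without PEPCK-TAg 2 (2.77, limma adjusted p = 0.0547). Its partner Bard1 was not tested, with signals of 15.1 and 5.1 on the PEPCK-TAg arrays, against 1.7 and 5.6 on the wild-type arrays. The helicase gene Blm, which with its partners dissolves crossed strands, gave 216.0 and 188.0 on the PEPCK-TAg arrays, against 39.3 and 39.6 on the wild-type arrays, a rise of 5.10-fold (2.35 ± 0.30 SE, limma adjusted p = 0.00527). Both wild-type signals of Blm stood just under the filter level. Blm was not tested without PEPCK-TAg 1, and without PEPCK-TAg 2 it gave 2.45 (limma adjusted p = 0.0547). The related helicase gene Wrn gave 119.1 and 132.7 in PEPCK-TAg liver against 84.4 and 99.6 in wild-type liver, a log2 difference of 0.45 (95% interval -0.25 to 1.16) that did not pass.

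The 3 genes of the MRN complex, which senses broken ends and brings ATM to them, gave unlike values. Rad50, its clasp-like ATPase, gave 439.5 and 393.7 on the PEPCK-TAg arrays, against 124.2 and 110.2 on the wild-type arrays, and rose 3.55-fold (log2 difference 1.83 ± 0.26 SE, limma adjusted p = 0.00709). Mre11a, its nuclease, gave 104.3 and 101.1 on the PEPCK-TAg arrays, against 30.8 and 37.3 on the wild-type arrays, and rose 3.03-fold (1.60 ± 0.34 SE, limma adjusted p = 0.0304). Within each gene the replicate arrays lay close together. The groups did not overlap in either, but Mre11a passed the filter only through the PEPCK-TAg arrays and so had to differ. Nbn, the subunit that binds ATM, gave 110.0 and 114.2 in PEPCK-TAg liver against 91.3 and 67.6 in wild-type liver, and its log2 difference of 0.51 did not pass (95% interval -0.25 to 1.27, limma adjusted p = 0.323). Whether Nbn differed from its partners in this respect was not tested. Rad50 lost its call without PEPCK-TAg 1 (1.75, limma adjusted p = 0.0725) and without PEPCK-TAg 2 (1.91, limma adjusted p = 0.0656). Mre11a was not tested without PEPCK-TAg 1 or without PEPCK-TAg 2, and under quantile normalization it was no longer called. Its probe set is of a type that Affymetrix marks as shared between transcripts.

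The other members of the recombination group did not pass the test or were too dim for it. Rad51d gave 58.1 and 53.7 on the PEPCK-TAg arrays, against 62.0 and 68.8 on the wild-type arrays, a log2 difference of -0.23 (95% interval -1.03 to 0.58). Rad52, which anneals single strands, gave 74.8 and 108.1 on the PEPCK-TAg arrays, against 95.4 on both wild-type arrays (-0.09, 95% interval -0.87 to 0.70). Rad54l, a motor protein of strand exchange, was below the filter level on every array, between 3.9 and 20.3.

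Both tested genes of the Fanconi anaemia core complex, which marks the FANCD2 protein with ubiquitin at crosslinks, rose (2 of 2, against 9.10% of all probe sets). Of these, Fancg passed the filter only through the PEPCK-TAg arrays and so had to differ. Fancc gave 351.2 and 230.2 on the PEPCK-TAg arrays, against 58.2 and 50.5 on the wild-type arrays, a rise of 5.24-fold (log2 difference 2.39 ± 0.33 SE, limma adjusted p = 0.00655). The PEPCK-TAg arrays differed from each other more than the wild-type arrays did, and the call was lost without PEPCK-TAg 1 (2.08, limma adjusted p = 0.0678). A further Fancc probe set lay below the filter level on all 4 arrays and was not tested. Fancg gave 70.1 and 107.4 on the PEPCK-TAg arrays, against 21.0 and 23.6 on the wild-type arrays, a rise of 3.89-fold (1.96 ± 0.41 SE, limma adjusted p = 0.0273). Wild-type liver read Fancg between the floor and the filter level, so the size of the rise is sensitive to the floor. With the floor raised to the 40th percentile it fell short of the threshold, with a log2 difference of 1.07, and it was not tested without PEPCK-TAg 1 or without PEPCK-TAg 2. Its promoter, shown above, carries an E2F word on the strand of the gene.

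Of 7 checkpoint genes with 8 probe sets tested, the effector kinase genes rose, 2 of the 8 probe sets (25.0%, against 9.10% of all). Chek1, the kinase that ATR activates at stalled forks, gave 496.5 and 370.2 on the PEPCK-TAg arrays, against 46.5 and 25.8 on the wild-type arrays. Its rise of 12.4-fold was the largest among the members (log2 difference 3.63 ± 0.38 SE, limma adjusted p = 0.00267) and stood at rank 83 among the 7877 probe sets tested, by log2 difference. With each array left out in turn the difference of Chek1 ran from 3.20 to 4.05 on the log2 scale. Chek2, the kinase that ATM activates at breaks, gave 196.8 and 161.2 on the PEPCK-TAg arrays, against 70.0 and 85.9 on the wild-type arrays, a rise of 2.29-fold (1.2 ± 0.30 SE, limma adjusted p = 0.0473). This was the weakest of the 10 calls: it was lost without PEPCK-TAg 1 (1.05, limma adjusted p = 0.263), without PEPCK-TAg 2 (1.34, limma adjusted p = 0.162), without wild-type 1 (1.05, limma adjusted p = 0.0646), and in 6 further settings.

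The upstream kinase gene Atm gave 159.7 and 81.0 on the PEPCK-TAg arrays, against 51.1 and 28.4 on the wild-type arrays. The groups did not overlap, but each spread widely, and the log2 difference of 1.58 did not pass (95% interval 0.42 to 2.73, limma adjusted p = 0.0823). The log2 difference of Atm was 1.09 without PEPCK-TAg 1 and 2.065 without PEPCK-TAg 2. It was 2.0 without wild-type 1 and 1.15 without wild-type 2. The clamp of RAD9, RAD1 and HUS1 encircles DNA at damaged sites, and RAD17 loads it. Rad1 gave 96.8 and 132.0 in PEPCK-TAg liver against 43.4 and 79.0 in wild-type liver (log2 difference 0.95, limma adjusted p = 0.173), and Rad17 gave 161.3 and 134.5 in PEPCK-TAg liver against 102.8 and 91.1 in wild-type liver (0.60, limma adjusted p = 0.215). One probe set of Hus1 gave 99.4 and 109.5 in PEPCK-TAg liver against 59.4 and 62.8 in wild-type liver (0.77, limma adjusted p = 0.152). In these 3 probe sets the groups did not overlap, and none passed the test. A further Hus1 probe set ran the other way with wide scatter, 46.8 and 9.1 in PEPCK-TAg liver against 31.8 and 59.7 in wild-type liver (-0.97, 95% interval -2.80 to 0.86), and Rad9a gave 43.3 and 30.5 in PEPCK-TAg liver against 34.3 and 43.6 in wild-type liver (-0.09, 95% interval -1.11 to 0.92).

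**Figure D2:**
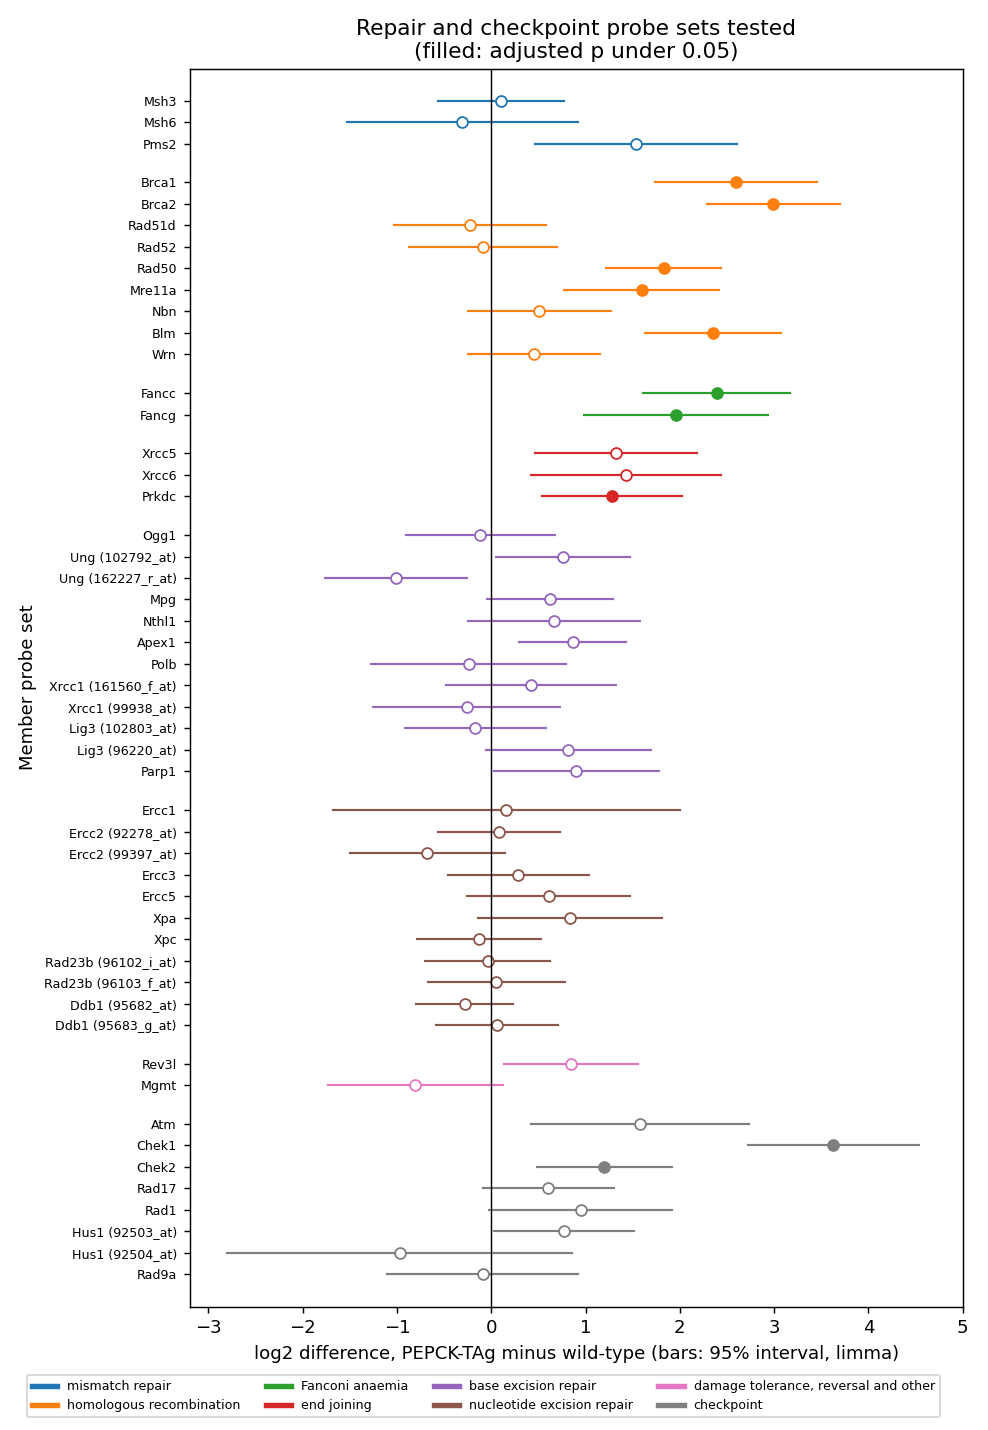
Log2 difference, PEPCK-TAg minus wild-type, of the 50 member probe sets tested, ordered by pathway, with limma's 95% intervals. Filled points passed an adjusted p of 0.05. All 10 filled points lie right of 0, in homologous recombination, the Fanconi anaemia group, end joining and the checkpoint group, while the intervals of all 11 nucleotide excision repair probe sets include 0.

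In end joining, all 3 genes tested were 2-fold or more higher in PEPCK-TAg liver with no overlap, against 14.7% of all probe sets, and 1 of the 3 (33.3%) passed the test, against 9.10% of all. Prkdc, the catalytic subunit of DNA-PK, gave 152.5 and 124.4 on the PEPCK-TAg arrays, against 55.0 and 58.3 on the wild-type arrays, and rose 2.43-fold (log2 difference 1.28 ± 0.31 SE, limma adjusted p = 0.0432). Its call was lost without PEPCK-TAg 1 (1.13, limma adjusted p = 0.277) and without PEPCK-TAg 2 (1.43, limma adjusted p = 0.157). The Ku ring that threads onto broken ends consists of the products of Xrcc6 and Xrcc5. Xrcc6 gave 315.8 and 181.6 in PEPCK-TAg liver against 120.7 and 65.7 in wild-type liver (1.43, 95% interval 0.42 to 2.43, limma adjusted p = 0.0755). Xrcc5 gave 164.4 and 214.0 in PEPCK-TAg liver against 96.5 and 58.1 in wild-type liver (1.32, 95% interval 0.47 to 2.18, limma adjusted p = 0.0599). In both Ku genes the wild-type arrays differed from each other by more than 1.5-fold, and so did the PEPCK-TAg arrays of Xrcc6. The log2 difference of Xrcc6 was 1.03 without PEPCK-TAg 1 and 1.82 without PEPCK-TAg 2. It was 1.86 without wild-type 1 and 0.99 without wild-type 2. Xrcc5 gave 1.69 without wild-type 1 and 0.77 in the array pair of 1 scan day. No test set the Ku genes against Prkdc.

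In mismatch repair 0 of 3 genes tested passed limma's test, against 9.10% called higher over all probe sets. At an unadjusted p under 0.05, where 2394 of all 7877 probe sets passed in either direction, 1 was higher. That gene was Pms2, which makes the nicking subunit of the MutL complex. Pms2 gave 59.4 and 46.6 on the PEPCK-TAg arrays, against 15.4 and 21.4 on the wild-type arrays, a log2 difference of 1.53 (95% interval 0.46 to 2.60, limma adjusted p = 0.0731). Pms2 passed the filter only through the PEPCK-TAg arrays, so the groups could not overlap. Its wild-type signals lay near the floor. With the floor raised to the 40th percentile the difference of Pms2 was 0.35 (limma adjusted p = 0.292), and without the intensity trend Pms2 was called (1.53, limma adjusted p = 0.0311). The mismatch sensors did not pass either. Msh3 gave 164.2 and 158.2 in PEPCK-TAg liver against 169.0 and 133.5 in wild-type liver (0.10, 95% interval -0.57 to 0.77). Its promoter, shown above, carries overlapping E2F words. Msh6 was near the filter level, at 44.0 and 21.5 in PEPCK-TAg liver against 31.6 and 45.6 in wild-type liver (-0.31, 95% interval -1.53 to 0.92). The exonuclease gene Exo1 was not tested, at 29.5 and 50.3 on the PEPCK-TAg arrays, against 4.2 and 9.8 on the wild-type arrays, both of them under the floor.

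In base excision repair 0 of 12 probe sets of 9 genes were called in limma's test. Over all probe sets 9.10% were called higher and 3.40% lower. At an unadjusted p under 0.05, 3 were higher and 1 was lower, where 2394 of all 7877 probe sets passed in either direction. The log2 differences ran from -1.01 to 0.90, and 1 of the 12, a probe set of Ung, was lower by 2-fold or more with no overlap. Apex1, the endonuclease that cuts at sites without a base, gave 631.0 and 555.8 on the PEPCK-TAg arrays, against 338.6 and 311.2 on the wild-type arrays, a log2 difference of 0.87 (95% interval 0.30 to 1.43, limma adjusted p = 0.0616). The replicate arrays lay close and the groups apart, and over the processing alternatives the difference of Apex1 ran from 0.74 to 0.96. Parp1, the sensor of strand breaks, gave 261.4 and 150.5 in PEPCK-TAg liver against 123.6 and 90.7 in wild-type liver (0.90, limma adjusted p = 0.155), by a probe set of a type that Affymetrix marks for sequence families. For both genes the groups did not overlap. The glycosylase gene Mpg gave 147.1 and 157.4 in PEPCK-TAg liver against 92.8 and 105.1 in wild-type liver (0.62, limma adjusted p = 0.191), and the glycosylase gene Nthl1 gave 61.2 and 56.2 in PEPCK-TAg liver against 42.7 and 32.0 in wild-type liver (0.66, limma adjusted p = 0.288). Ogg1, which removes oxidised guanine, gave 69.3 and 77.9 in PEPCK-TAg liver against 70.0 and 90.4 in wild-type liver (-0.12, 95% interval -0.90 to 0.67). The gap-filling polymerase gene Polb gave 127.5 and 70.9 in PEPCK-TAg liver against 149.1 and 84.4 in wild-type liver (-0.24, 95% interval -1.28 to 0.79).

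Where base excision genes had more than 1 probe set, these disagreed in sign. For Ung, which removes uracil from DNA, one probe set gave 372.1 and 367.8 on the PEPCK-TAg arrays, against 175.4 and 271.2 on the wild-type arrays (0.76, limma adjusted p = 0.143). The other gave 142.9 and 236.2 on the PEPCK-TAg arrays, against 376.0 and 361.9 on the wild-type arrays (-1.01, limma adjusted p = 0.0874), and the groups did not overlap in either. The second is of a type for which Affymetrix dropped some of its rules of probe choice. The first Ung probe set was called higher without wild-type 2 (1.07, limma adjusted p = 0.0335). Probe sets of Lig3, the ligase that seals the nick, gave 0.82 and -0.17, and those of its scaffold Xrcc1 gave 0.42 and -0.26, none past the threshold. In all, 7 member genes had more than 1 probe set tested (Ddb1, Ercc2, Hus1, Lig3, Rad23b, Ung and Xrcc1), and in all 7 the probe sets differed in sign. No direction is therefore given for these genes.

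Nucleotide excision repair gave 0 calls among 11 probe sets of 8 genes in limma's test, against 9.10% called higher and 3.40% called lower over all probe sets, a background at which so few probe sets may hold none. None passed an unadjusted p under 0.05, against 2394 of all 7877 probe sets in either direction. The median log2 difference was 0.060, against 0.051 over all probe sets tested, and the range -0.68 to 0.83. Ddb1, part of a ubiquitin ligase that finds lesions, gave 2274 and 2404.4 on the PEPCK-TAg arrays, against 2682 and 2997.7 on the wild-type arrays by one probe set (-0.28, 95% interval -0.79 to 0.23). The sensor genes Xpc and Rad23b also had small differences. Xpc gave 148.1 and 144.2 in PEPCK-TAg liver against 175.3 and 145.5 in wild-type liver (-0.13, 95% interval -0.78 to 0.52), and the Rad23b probe sets gave -0.04 and 0.06. Ercc3, a helicase of TFIIH, gave 155.3 and 137.6 in PEPCK-TAg liver against 143.6 and 99.6 in wild-type liver (0.29, 95% interval -0.46 to 1.03). The other TFIIH helicase gene, Ercc2, gave 182.4 and 175.7 in PEPCK-TAg liver against 151.6 and 188.4 in wild-type liver by its brighter probe set (0.08). Xpa, which checks the lesion, gave 117.0 and 134.9 in PEPCK-TAg liver against 99.9 and 49.7 in wild-type liver (0.83, limma adjusted p = 0.223). Wild-type 2 read far below wild-type 1. The log2 difference of Xpa was 0.23 in the array pair of 1 scan day and 1.34 without wild-type 1. Ercc5, the 3' nuclease, gave 109.1 and 123.0 in PEPCK-TAg liver against 98.2 and 58.6 in wild-type liver (0.61, limma adjusted p = 0.304). Ercc1, a subunit of the 5' nuclease, had the widest spread, 80.8 and 68.6 in PEPCK-TAg liver against 27.7 and 159.8 in wild-type liver (0.16, 95% interval -1.68 to 2.0), so a difference was not detectable at this spread.

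Of the damage tolerance and reversal genes, 0 of 2 tested passed limma's test, against 9.10% called higher over all probe sets. At an unadjusted p under 0.05, where 2394 of all 7877 probe sets passed in either direction, 1 was higher. That gene was Rev3l, the catalytic subunit of the lesion-bypass polymerase zeta. Rev3l gave 398.0 and 264.0 on the PEPCK-TAg arrays, against 188.8 and 171.7 on the wild-type arrays (log2 difference 0.85, 95% interval 0.14 to 1.56, limma adjusted p = 0.114). Mgmt, which takes methyl groups off guanine, went the other way without passing, at 30.8 and 45.8 in PEPCK-TAg liver against 66.4 and 64.9 in wild-type liver (-0.81, 95% interval -1.74 to 0.12, limma adjusted p = 0.216). For both genes the groups did not overlap.

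Other genes of the same pathways were read from a further list of 98 symbols, 48 of them on the array. Of the 45 probe sets tested, 21 rose (46.7%, against 9.10% of all) and none fell in limma's test (25 higher and 0 lower at an unadjusted p under 0.05), with a median log2 difference of 0.95. Of the 21 rises, 6 were of probe sets that passed the filter only through the PEPCK-TAg arrays and so had to differ, and 15 were above the filter level on at least 1 wild-type array. The 6 genes with the smallest p were Lig1, Rfc4, Topbp1, Rpa1, Cdc25c and Rfc5. Lig1, the ligase of replication and long-patch base excision, gave 509.5 and 498.2 in PEPCK-TAg liver against 51.1 and 58.2 in wild-type liver (9.23-fold). Topbp1, which activates ATR, gave 487.6 and 313.7 in PEPCK-TAg liver against 52.5 and 46.5 in wild-type liver (7.91-fold). Rpa1, the large subunit of the single-strand binding protein, gave 1386.5 and 1291 in PEPCK-TAg liver against 267.0 and 331.8 in wild-type liver (4.49-fold). All 3 were clear of their wild-type arrays, with limma adjusted p between 0.00141 and 0.00322. Rfc4 and Rfc5, subunits of the loader of PCNA that RAD17 borrows for the checkpoint clamp, rose 10.5-fold and 4.33-fold. Cdc25c, the phosphatase that CHK1 inhibits, read 144.7 and 115.9 in PEPCK-TAg liver against 11 and 4.7 in wild-type liver, the last under the floor, by the probe set named by its p, and rose at least 12-fold. A further Cdc25c probe set, with all arrays above the floor, gave 188.9 and 187.4 in PEPCK-TAg liver against 43.9 and 26.7 in wild-type liver and rose 5.49-fold.

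By pathway, 10 of 14 further checkpoint probe sets (71.4%), 5 of 9 of homologous recombination (55.6%) and 4 of 5 of base excision repair (80.0%) rose, against 9.10% of all probe sets. These counts hold probe sets that passed the filter only through the PEPCK-TAg arrays, 2 of the 10 for the checkpoint (Rfc4 and 1 of Cdc25c), 1 of the 5 for recombination and 1 of the 4 for base excision (Mutyh). The base excision genes were Lig1, Parp2, Fen1 and Mutyh, named after their values were seen. Lig1 and Fen1 also work at the replication fork. The difference from the 0 of 12 among the base excision members was not tested. Nucleotide excision repair again gave 0 of 8 in limma's test, with none at an unadjusted p under 0.05 and log2 differences of -0.57 to 0.64.

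**Figure D3:**
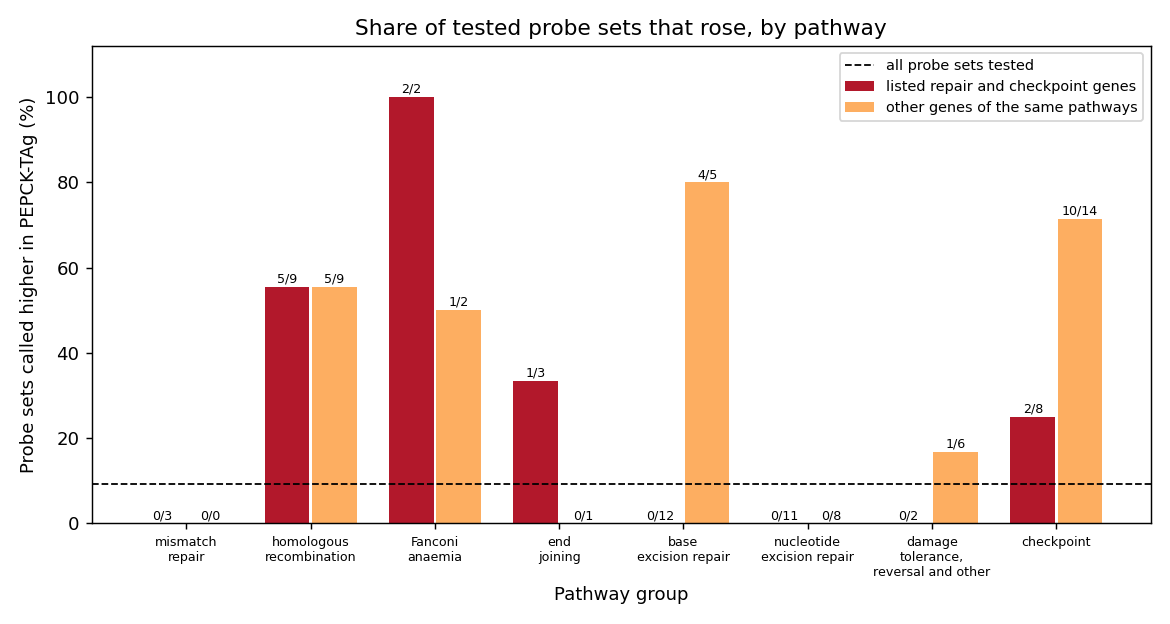
Share of tested probe sets called higher in PEPCK-TAg liver, in percent, for the listed repair and checkpoint genes (red) and other genes of the same pathways (orange), with called and tested numbers above each bar. The dashed line is the share over all probe sets tested, 9.10%. Both kinds of bar stand at 0 for nucleotide excision repair and at 55.6% for homologous recombination. Of the called probe sets, 3 of the listed genes and 6 of the other genes passed the filter only through the PEPCK-TAg arrays.

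Markers of dividing, myeloid and erythroid cells were mostly higher in PEPCK-TAg liver, and those of lymphocytes went both ways. Over all probe sets tested, 9.10% were called higher and 3.40% lower. Of 20 markers of dividing cells on the array, 19 were tested and all 19 rose by at least 1 probe set. Of their 21 called probe sets, 8 passed the filter only through the PEPCK-TAg arrays. A further probe set of Mki67 (-0.65, no overlap) and of Tk1 (-0.90, with overlap) was lower and did not pass. The summed signal of the 20 was 22624.8 and 20594.1 on the PEPCK-TAg arrays, against 2564.4 and 2134.1 on the wild-type arrays. Myeloid markers rose in 12 of 18 genes tested (7 of them only through the PEPCK-TAg arrays), with sums of 10309.3 and 14766.6 on the PEPCK-TAg arrays, against 2257.2 and 2084.2 on the wild-type arrays. Erythroid markers rose in 8 of 11, with sums of 11381.7 and 16372.4 in PEPCK-TAg liver against 4052.6 and 4447.3 in wild-type liver. Of their 9 called probe sets, 3 passed the filter only through the PEPCK-TAg arrays. The erythroid genes not called were Alas2 (-0.57), Tfrc (0.04) and Gata1 (1.05). Lymphocyte markers rose in 2 of 5 genes tested (Ccl5 and Ltb, both of which passed the filter only through the PEPCK-TAg arrays), while Cd4 (-0.93), Ms4a1 (-0.65) and Cd79a (-0.56) were lower with no overlap and did not pass. The lymphocyte list had a median log2 difference of -0.56, with sums of 427.7 and 368.1 in PEPCK-TAg liver against 417.1 and 400.9 in wild-type liver, and Cd3d, Cd3e, Cd3g and Cd8a were below the filter level on all arrays. Of the bile duct list, 3 of 3 genes tested rose (Cd24a, Krt18 and Cldn7, the last only through the PEPCK-TAg arrays). The sums were 4394.5 and 5807.9 in PEPCK-TAg liver against 1339.4 and 1362 in wild-type liver, nearly all of it Krt18 and Cd24a. Krt7, Krt19 and Epcam were below the filter level, and which cells gave the 3 rises was not tested. Endothelial markers rose in 0 of 7 genes in limma's test, where 2 probe sets were higher at an unadjusted p under 0.05 (sums 1872.7 and 2122.5 in PEPCK-TAg liver against 2687.8 and 1524.9 in wild-type liver), and fibroblast markers in 1 of 4, where 1 fell (sums 1817.1 and 1758.2 in PEPCK-TAg liver against 2660.5 and 3167.9 in wild-type liver). All 9 hepatocyte markers on the array were tested, 3 fell (Cyp2e1, Tat and Ttr), and their sums were 47286 and 58957.6 in PEPCK-TAg liver against 82715.3 and 85962.3 in wild-type liver. No marker was listed at 0. The part of blood cells in the rises of the repair genes was not tested either.

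**Figure D4:**
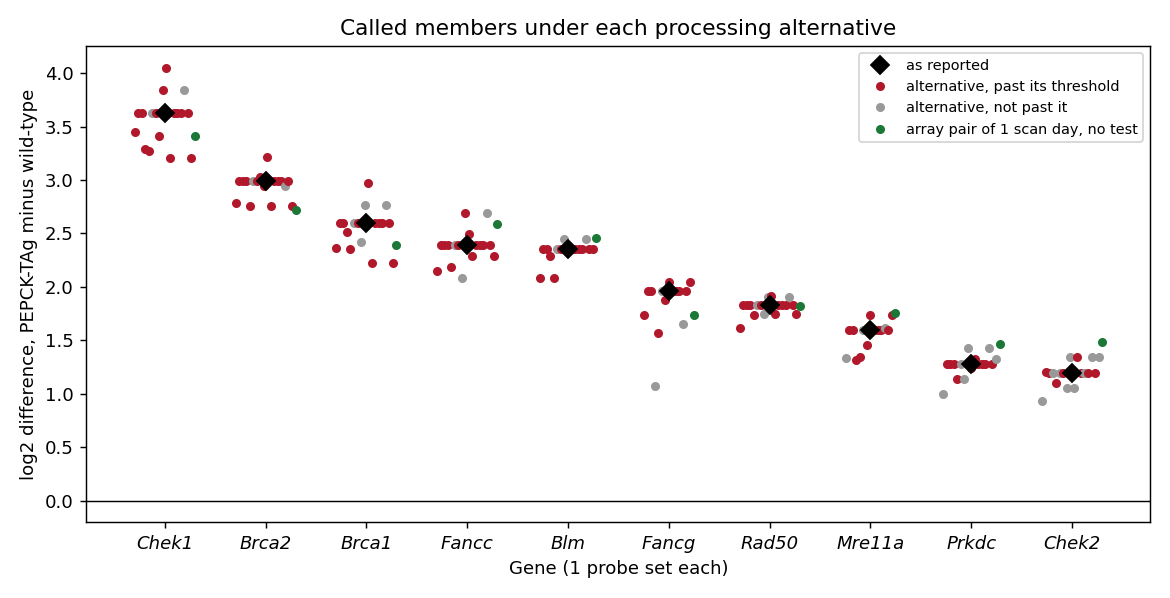
Log2 difference, PEPCK-TAg minus wild-type, of the 10 called members under each processing alternative. Black diamonds are the reported values, red points alternatives past their threshold, grey points alternatives not past it and green points the array pair of 1 scan day, which has no test. All points lie above 0, which was fixed in advance, apart from the changes of normalization, because the groups did not overlap. The lowest point is that of Chek2 at 0.93.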

How the data were processed

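Per the submitters' processing notes, MAS5 (version not given in the sources used here) made the deposited values, 1 intensity (signal) per probe set and array on a linear scale. The authors' signals had the same 2% trimmed mean on each array, 250.1 to 250.2. Here each array was scaled linearly to a common 2% trimmed mean without the 66 controls (a change of at most 0.102%), signals were raised to a floor of 10.6 (20th percentile) and log2 was taken. Probe sets with at least 2 of 4 arrays above 41.3 (40th percentile) were fitted with limma 3.58.1 in R 4.3.3 (eBayes with intensity trend, two-sided, no block, Benjamini-Hochberg adjustment), checked on simulated data. Printed signals are as deposited. Standard errors and intervals are limma's moderated ones, and folds are ratios of geometric means after the floor. Symbols come from the platform's annotation table, and all 46 members matched RefSeq by gene ID. A gene was counted as risen if 1 of its tested probe sets was. Alternatives changed the normalization, floor, filter, arrays, blocks, moderation and threshold. The members, the further lists and the alternatives were chosen with earlier results of these data known. The rule for naming took every member tested, and up to 6 rises and falls of the further pathway list by p.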

Additional observations from a re-analysis of the deposited data

How the results depend on the processing

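Among the 10 called members no alternative reversed the direction. Both PEPCK-TAg arrays lay above both wild-type arrays in all 10, so only the changes of normalization could have reversed it. With each array left out in turn the number of risen members ran from 2 to 14, the number of all calls from 127 to 1689 (985 with all 4 arrays), and the 2-fold count from 11 to 16. With no filter the calls were 0 for members and 165 in all, and blocking on the fluidics station gave 0 and 0 (1432 probe sets at an unadjusted p under 0.05). That fit had 1 residual degree of freedom, as had the other fits with a block and those with an array left out. The replicate number as a block gave 16 risen members, against 15.7% called higher over all probe sets. Those were the 10 with Atm, Parp1, Xrcc6, Rev3l, Apex1 and Xrcc5. It also gave 1 member lower (a probe set of Ung, -1.01, limma adjusted p = 0.0294) and 1873 calls in all. The labels do not say what the number stands for, and deviations from the group means correlated at 0.253 between arrays of the same number. At an adjusted p of 0.1 all calls were 1621, and with a filter at the 60th percentile, where 26 member probe sets were tested, 9 members passed the 2-fold count. Quantile normalization moved the median of all probe sets from 0.051 to -0.088 and that of the members from 0.61 to 0.33. It left 7 of 49 member probe sets risen, without Chek2, Prkdc and Mre11a, against 7.22% of all probe sets. Chek2 also lost its call with a floor at the 40th percentile (as did Fancg), without the intensity trend and with the scanner type as a block (as did Prkdc). Members that were not called changed sign under quantile normalization (Ercc1 -0.11, Msh3 -0.17, Ercc2 -0.19, Ddb1 0.0058, Rad23b -0.023), with a floor at the 40th percentile (Ercc1 -0.13), with the station as a block (Hus1 0.10, Msh6 0.21, Rad9a 0.16, Ddb1 -0.0026, Rad23b 0.088, Polb 0.18) and with the scanner type as a block, chosen after seeing the data (Msh3 -0.071, Ogg1 0.068, Rad9a 0.081, Rad23b -0.20, Xrcc1 0.036). Chip lot as a random block, also chosen later, could not be fitted. With an array left out, the ranges of those that changed sign were -1.10 to 1.42 for Ercc1, -0.35 to 0.18 for Rad52, -0.071 to 0.27 for Msh3, -0.30 to 0.068 for Ogg1, -0.075 to 0.24 for Ercc2, -1.42 to 0.10 for Hus1, -0.57 to 0.21 for Msh6, -0.26 to 0.16 for Rad9a, -0.26 to 0.0052 for Xpc, -0.23 to 0.35 for Ddb1, -0.32 to 0.24 for Rad23b, -0.21 to 0.33 for Rad23b, -0.66 to 0.18 for Polb and -0.56 to 0.036 for Xrcc1. Apart from such alternatives the cause of a change was not tested.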
